A study of Drosophila melanogaster with 42 samples.

Results

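The heads of male offspring were compared for their response to paternal restraint between 2 father genotypes, labelled dATF-2KO and w1118. For each gene, the restrained minus unrestrained change on the log2 scale was taken within each genotype, and the change with dATF-2KO fathers was subtracted from the change with w1118 fathers. A positive difference therefore means a change that was larger, or less negative, with w1118 fathers. The comparison used 20 of the 42 libraries of the series and 9808 of the 15061 genes listed, those with a mean of at least 1 FPKM (fragments mapped, scaled for the length of the transcript and the size of the library) in the heads of both genotypes.

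The study asked whether stress in fathers changes gene expression in their offspring, and whether the transcription factor dATF-2 is needed for it. Fathers were held between sponge plugs in 3 sessions of 10 hours each, or left unrestrained, and were mated with unrestrained w1118 females. w1118 is a laboratory strain with a mutant white gene that served as the wild type, and dATF-2KO is a line in which the whole dATF-2 gene was deleted and which was crossed back to w1118. The 4 groups, each of 5 libraries, were sons of restrained dATF-2KO fathers, sons of unrestrained dATF-2KO fathers, sons of restrained w1118 fathers and sons of unrestrained w1118 fathers. Every library came from 50 pooled flies. Their age was 5 to 6 days by the labels of the samples, while the design text gave 6 to 7 days. By this cross, sons of dATF-2KO fathers would carry a maternal copy of the gene and not be null mutants, and every son would have its X chromosome from a w1118 mother.

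dATF-2 is the fly member of the ATF-2 family, transcription factors that bind DNA and are phosphorylated by stress-activated kinases such as p38. In flies and mice it takes part in keeping heterochromatin silent, and stress can release it from its sites. The adult fly head holds the compound eyes, with their rhodopsins and phototransduction proteins, the brain, with its clock neurons, and a fat body that stores and secretes proteins.

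Atf-2, as the dATF-2 gene is listed (2R:20757590-20776138 on the dm3 build), was looked at first, in every library. It stood at 73.0, 73.0, 69.1, 72.0 and 71.4 FPKM in sons of restrained and at 70.4, 70.9, 69.9, 75.0 and 71.8 FPKM in sons of unrestrained dATF-2KO fathers, against 68.5, 69.5, 69.9, 67.7 and 66.7 FPKM in sons of restrained and 71.7, 74.0, 72.3, 74.7 and 74.6 FPKM in sons of unrestrained w1118 fathers. The 2 ranges overlapped almost wholly, 69.1 to 75.0 FPKM in heads labelled dATF-2KO and 66.7 to 74.7 FPKM in w1118 heads, in tables scaled separately. A father without the gene would leave his sons 1 copy against 2 in sons of w1118 fathers, and the listed levels show no such step, so that only the labels place a head in its genotype. The span of Atf-2 in the table overlaps those of 4 other genes. Its log2 change was 0.0019 in heads labelled dATF-2KO and -0.10 in w1118 heads, with a difference of -0.10 (SE 0.030, adjusted p = 0.199 from limma).

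Several libraries stood apart. Between 1804 and 2488 of the listed genes were at 0 FPKM in a library. The value of a single fragment, read from genes seen in few libraries, was 0.958 to 1.13 times its median in each table. Only genes whose values above 0 lay close together were used for this. The range is therefore narrow by construction and cannot show how far depth varied. The methods give only an approximate number of reads for every library. The yolk protein gene Yp1, a female product, was at 499 FPKM in restrained replicate 3 and 12.8 FPKM in unrestrained replicate 3 of the heads labelled dATF-2KO, and at most 2.70 FPKM in the other 18 libraries. Over 29 accessory gland and ejaculatory duct markers, restrained replicate 4 labelled dATF-2KO had a mean log2(FPKM + 0.5) of 1.60, against a median of 0.39 in its own group and 0.15 to 0.66 in the 15 libraries of the other groups. In the w1118 heads, unrestrained replicate 3 was the farthest from the restrained group for 10 of the 15 genes described next.

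The restraint response differed between father genotypes at an adjusted p under 0.05 for 15 genes, each by a small amount and none when the replicate number entered the fit. His3.3B, a histone gene, fend, Rbp2, Tis11, Pepck, l(2)34Fc and CG9519 had the more positive change with w1118 fathers. The rhodopsin genes Rh5 and Rh3, the clock gene tim, Ubpy, l(1)G0148, CG14186, CG4577 and CRMP had the more negative one. No gene had a difference of changes that passed both the adjusted p of 0.05 and a size of 1.4-fold, the thresholds of the study, by limma on log2(FPKM + 0.5), with 0 positive and 0 negative differences. At an unadjusted p under 0.05 there were 493 positive differences, 5.03% of the genes tested, and 646 negative ones, 6.59%. This balance depended on the scaling, with 538 positive and 591 negative after median-of-ratios scaling and 617 positive and 480 negative after quantile normalization. At an adjusted p under 0.05 with no threshold on the size, 7 differences were positive, 0.0714% of the genes tested, and 8 were negative, 0.0816%. These 15 differences were between 1.09-fold and 1.28-fold. With the replicate number as a block 0 of the 15 had an adjusted p under 0.05 (limma, from 0.0909 to 0.214). That fit had 466 positive and 589 negative differences at an unadjusted p under 0.05. Whether the numbers paired the samples is not said. Of the 15 genes, 0 had an adjusted p under 0.05 for the change in heads labelled dATF-2KO by limma, where 7 had an unadjusted p under 0.05, and 14 in w1118 heads. Of all genes tested, 0.051% passed that adjusted p in heads labelled dATF-2KO and 3.54% in w1118 heads, and 9.48% had an unadjusted p under 0.05 in the heads labelled dATF-2KO. The 2 changes ran in opposite directions in 11 of the 15, and the change in w1118 heads was the larger in 13. The 15 genes were chosen by the difference of these changes, a choice that favours opposite signs, so these counts are a description. Over all genes tested, the 2 changes had the same sign in 55.1%. With the mean level of the accessory gland markers as a covariate 2 of the 15 kept an adjusted p under 0.05, His3.3B and CG14186, and the adjusted p of the other 13 lay between 0.0545 and 0.194. With any 1 library left out, 9 of the 15 kept an adjusted p under 0.05 in all 20 fits, the same number kept it without restrained replicate 4 labelled dATF-2KO and 13 without unrestrained w1118 replicate 3, and the sign of all 15 was the same in the 31 settings tried.

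Among the genes with a positive difference, 4 were low in unrestrained w1118 heads against all 15 other libraries. His3.3B encodes the replacement histone H3.3, which enters chromatin outside of DNA replication (X:9046556-9050721). It stood at 554, 556, 556, 566 and 559 FPKM in restrained and 549, 548, 538, 516 and 534 FPKM in unrestrained heads labelled dATF-2KO, against 504, 507, 514, 536 and 502 FPKM in restrained and 428, 408, 381, 407 and 428 FPKM in unrestrained w1118 heads. In both genotypes the restrained libraries all lay above the unrestrained ones, by a narrow margin in heads labelled dATF-2KO and a wide one in w1118 heads. Its log2 change was 0.056 with dATF-2KO and 0.32 with w1118 fathers, and the difference was 0.27 (SE 0.039, adjusted p = 0.0100 from limma). His3.3A, which encodes the same protein from chromosome 2L, had a difference of 0.081 (adjusted p = 0.509 from limma).

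The gene fend (forked end, X:9016006-9029073), known from the guidance of motor axons, had the largest of the 15 differences. It was at 16.2, 16.3, 15.7, 16.4 and 16.2 FPKM in restrained and 15.5, 15.8, 16.6, 14.7 and 15.4 FPKM in unrestrained heads labelled dATF-2KO, against 14.6, 13.6, 14.8, 14.1 and 12.9 FPKM in restrained and 10.8, 10.4, 9.76, 10.2 and 11.2 FPKM in unrestrained w1118 heads. The groups overlapped in heads labelled dATF-2KO and did not in w1118 heads. The log2 changes were 0.048 with dATF-2KO and 0.40 with w1118 fathers, with a difference of 0.35 (SE 0.055, adjusted p = 0.0142 from limma). Rbp2, listed by RefSeq as eIF4H1, an RNA-binding translation factor (X:16342710-16349005), averaged 76.3 ± 2.85 FPKM in restrained and 70.9 ± 3.47 FPKM in unrestrained heads labelled dATF-2KO, against 68.3 ± 1.62 FPKM in restrained and 51.9 ± 2.12 FPKM in unrestrained w1118 heads (SD, n = 5). Its change was positive in both genotypes, 0.11 with dATF-2KO and 0.39 with w1118 fathers, and the difference was 0.29 (adjusted p = 0.0142 from limma). Tis11, which encodes a zinc finger protein that binds AU-rich elements and speeds the decay of mRNAs (X:12553395-12576587), averaged 28.8 ± 1.14 FPKM in restrained and 29.1 ± 1.19 FPKM in unrestrained heads labelled dATF-2KO, against 27.5 ± 0.663 FPKM in restrained and 23.0 ± 0.959 FPKM in unrestrained w1118 heads (SD, n = 5). Its difference was 0.27 (adjusted p = 0.0197 from limma), and it lost its adjusted p under 0.05 without restrained replicate 1, 4 or 5 labelled dATF-2KO, with a highest value of 0.0537.

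These 4 genes lie on the X chromosome, as do 6 of the 15 and 16.4% of the genes tested. fend and His3.3B are near neighbours of mei-P26, which encodes a TRIM-NHL protein that regulates translation, in an interval of 67.3 kb on X from 9016006 to 9083342. The difference was 0.35 for fend, 0.27 for His3.3B and 0.32 for mei-P26, where the adjusted p was 0.218 from limma. Of the 10 genes tested in this interval, only these 3 had a positive difference at an unadjusted p under 0.05 from limma. The genes between them did not reach that level in either direction. The start of fend and the end of mei-P26 set this interval, which was chosen after the values were seen. Of the 34 other tested genes within 100 kb of it, 3 had a positive difference at an unadjusted p under 0.05 from limma, as had 146 of the 1605 tested on X and 5.03% of all genes.

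**Figure D1:**
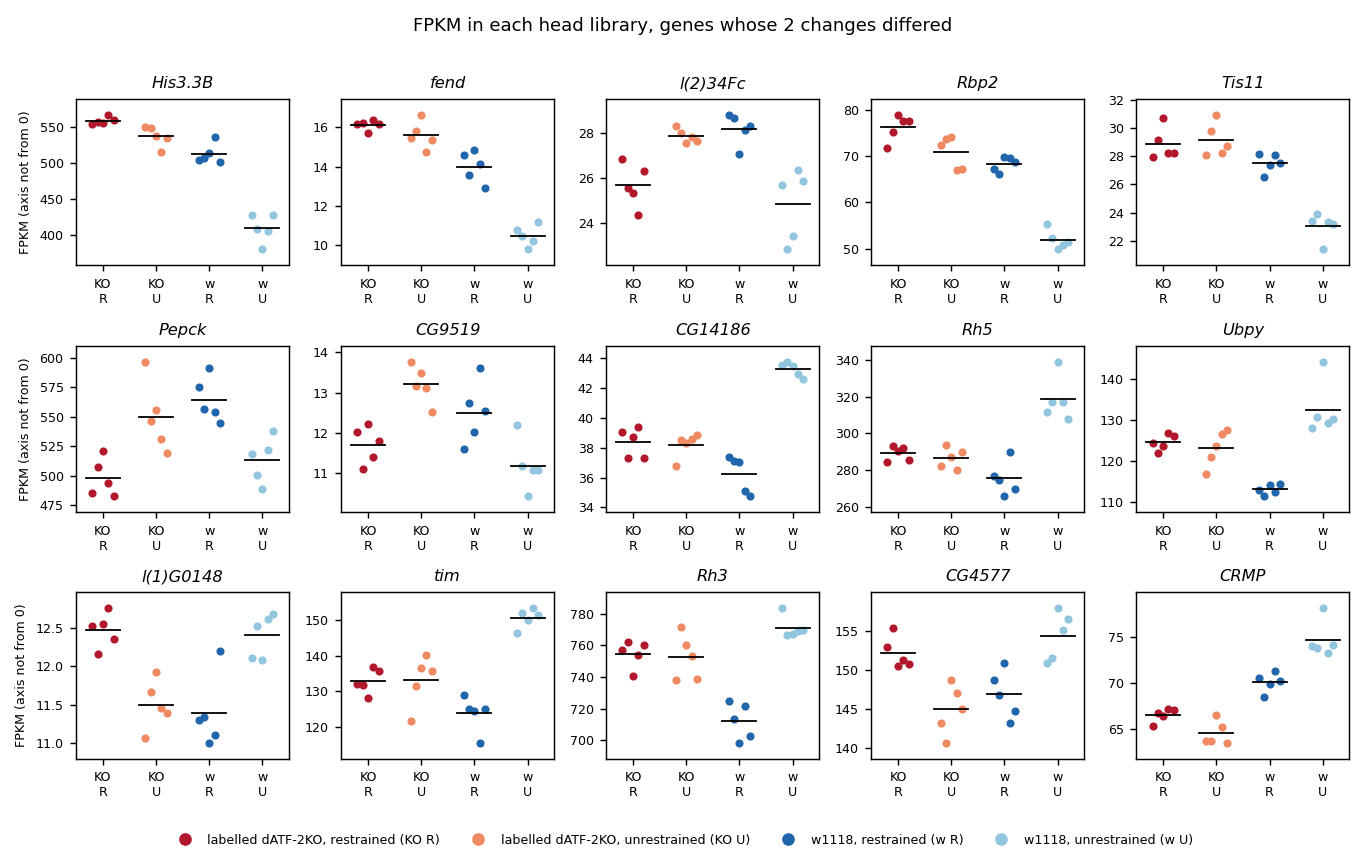
FPKM of the 15 genes at an adjusted p under 0.05 for the difference of changes, positive differences first. Each panel shows 1 gene and each point 1 library, with heads labelled dATF-2KO (KO) left of w1118 heads (w), restrained (R) left of unrestrained (U), lines at group means and axes that do not start at 0. Unrestrained w1118 heads lie apart from the other 15 libraries in 9 of the 15 panels, such as His3.3B with 381 to 428 FPKM.

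For the eye and clock genes the difference was negative. Rh5 and Rh3 encode rhodopsins of the inner photoreceptors R8 and R7, sensitive to blue and ultraviolet light. Rh5 (2L:12008376-12009845) was at 284, 293, 290.5, 292 and 286 FPKM in restrained and 282, 293, 287, 280.0 and 290.0 FPKM in unrestrained heads labelled dATF-2KO, against 277, 275, 266, 289.8 and 269.8 FPKM in restrained and 312, 317, 339, 317 and 308 FPKM in unrestrained w1118 heads. The dATF-2KO groups overlapped, and every unrestrained w1118 library lay above the other 15. The difference was -0.22 (SE 0.035, adjusted p = 0.0142 from limma), with changes of 0.013 in heads labelled dATF-2KO and -0.21 in w1118 heads. Rh3 (3R:15906782-15908172) averaged 755 ± 8.53 FPKM in restrained and 753 ± 14.3 FPKM in unrestrained heads labelled dATF-2KO, against 712 ± 11.4 FPKM in restrained and 771 ± 6.91 FPKM in unrestrained w1118 heads (SD, n = 5). Its difference of -0.12 (adjusted p = 0.0197 from limma) was the smallest of the 15, and it lost its adjusted p under 0.05 without restrained replicate 1, 2, 4 or 5 labelled dATF-2KO, at up to 0.0559.

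tim encodes Timeless, the partner of Period in the negative limb of the circadian clock (2L:3493986-3508119). It was at 132, 132, 128, 137 and 136 FPKM in restrained and 122, 131, 137, 140.2 and 136 FPKM in unrestrained heads labelled dATF-2KO, against 129, 125, 125, 116 and 125 FPKM in restrained and 146, 152, 150.0, 153 and 151 FPKM in unrestrained w1118 heads. Unrestrained w1118 heads lay above all other libraries. The change was -0.0011 in heads labelled dATF-2KO and -0.28 in w1118 heads, and the difference -0.28 (SE 0.047, adjusted p = 0.0142 from limma) was the most negative of the 15.

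CG14186, a gene with no name beyond its number (3L:20091184-20096927), had the smallest p of all 9808 genes. It was at 39.0, 37.3, 38.7, 39.4 and 37.3 FPKM in restrained and 36.7, 38.5, 38.3, 38.6 and 38.9 FPKM in unrestrained heads labelled dATF-2KO, against 37.4, 37.1, 37.1, 35.1 and 34.8 FPKM in restrained and 43.5, 43.8, 43.5, 42.9 and 42.6 FPKM in unrestrained w1118 heads. The 15 libraries of the first 3 groups spanned 34.8 to 39.4 FPKM, and the 5 unrestrained w1118 libraries lay above them at 42.6 to 43.8 FPKM. Its difference was -0.26 (SE 0.033, adjusted p = 0.00315 from limma). Ubpy, listed by RefSeq as Usp8, a deubiquitinating enzyme that acts on endosomal cargo (3R:16959984-16963936), averaged 125 ± 1.92 FPKM in restrained and 123 ± 4.44 FPKM in unrestrained heads labelled dATF-2KO, against 113 ± 1.21 FPKM in restrained and 132 ± 6.62 FPKM in unrestrained w1118 heads (SD, n = 5). Its difference was -0.24 (adjusted p = 0.0142 from limma).

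In 6 of the 15 genes both changes had an unadjusted p under 0.05 and they ran in opposite directions. Pepck encodes phosphoenolpyruvate carboxykinase, which makes phosphoenolpyruvate from oxaloacetate in gluconeogenesis (2R:14424272-14426924). It was at 485, 508, 521, 493 and 483 FPKM in restrained and 596, 546, 555, 531 and 519 FPKM in unrestrained heads labelled dATF-2KO, against 575, 557, 591, 554 and 545 FPKM in restrained and 519, 500.2, 489, 522 and 538 FPKM in unrestrained w1118 heads. The restrained libraries were on the low side with dATF-2KO fathers, with a slight overlap, and all above the unrestrained ones with w1118 fathers. The changes were -0.14 with dATF-2KO (unadjusted p = 0.000833) and 0.14 with w1118 fathers (unadjusted p = 0.00106), and the difference was 0.28 (SE 0.050, adjusted p = 0.0215 from limma). Without restrained replicate 1, 4 or 5 labelled dATF-2KO its adjusted p was between 0.0536 and 0.0567. The neighbouring paralog CG10924 averaged 0.984 ± 0.108 FPKM in restrained heads labelled dATF-2KO (SD, n = 5), and its difference was 0.21 (unadjusted p = 0.0797 from limma).

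l(2)34Fc, a gene first known by a lethal mutation (2L:14349114-14351510), was at 26.8, 25.6, 25.3, 24.4 and 26.3 FPKM in restrained and 28.3, 28.0, 27.5, 27.8 and 27.7 FPKM in unrestrained heads labelled dATF-2KO, against 28.8, 28.6, 27.0, 28.1 and 28.3 FPKM in restrained and 25.7, 22.8, 23.4, 26.4 and 25.8 FPKM in unrestrained w1118 heads. All restrained libraries lay below the unrestrained ones with dATF-2KO fathers and all above with w1118 fathers, and the difference was 0.30 (SE 0.050, adjusted p = 0.0142 from limma). l(1)G0148, listed by RefSeq as Cdc7, a kinase that starts DNA replication (X:6548649-6553742), ran the other way. It ranged over 12.2 to 12.7 FPKM in restrained and 11.1 to 11.9 FPKM in unrestrained heads labelled dATF-2KO, against 11.0 to 12.2 FPKM in restrained and 12.1 to 12.7 FPKM in unrestrained w1118 heads, where 1 restrained library, replicate 5, reached into the unrestrained range. Its difference was -0.23 (adjusted p = 0.0142 from limma).

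The other 3 genes kept an adjusted p under 0.05 in fewer fits. CG9519, whose product belongs to the GMC oxidoreductases, averaged 11.7 ± 0.455 FPKM in restrained and 13.2 ± 0.473 FPKM in unrestrained heads labelled dATF-2KO, against 12.5 ± 0.771 FPKM in restrained and 11.2 ± 0.642 FPKM in unrestrained w1118 heads (SD, n = 5). Its difference was 0.32 (adjusted p = 0.0320 from limma), and its span in the table covers other genes, so that reads could be split between them. CG4577 had a difference of -0.14 (adjusted p = 0.0313 from limma), with 150.5 to 155 FPKM in restrained and 141 to 149 FPKM in unrestrained heads labelled dATF-2KO, against 143 to 151 FPKM in restrained and 151 to 158 FPKM in unrestrained w1118 heads. CRMP encodes a protein of the family that includes dihydropyrimidinase and the collapsin response mediators of growing axons. It had a difference of -0.13 (adjusted p = 0.0451 from limma), with 65.4 to 67.2 FPKM in restrained and 63.6 to 66.6 FPKM in unrestrained heads labelled dATF-2KO, against 68.5 to 71.3 FPKM in restrained and 73.3 to 78.1 FPKM in unrestrained w1118 heads. Over the 20 fits with a library left out, the adjusted p was at or above 0.05 in 14 for CG9519 (at up to 0.0880), in 12 for CG4577 (0.0774) and in 16 for CRMP (0.119).

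**Figure D2:**
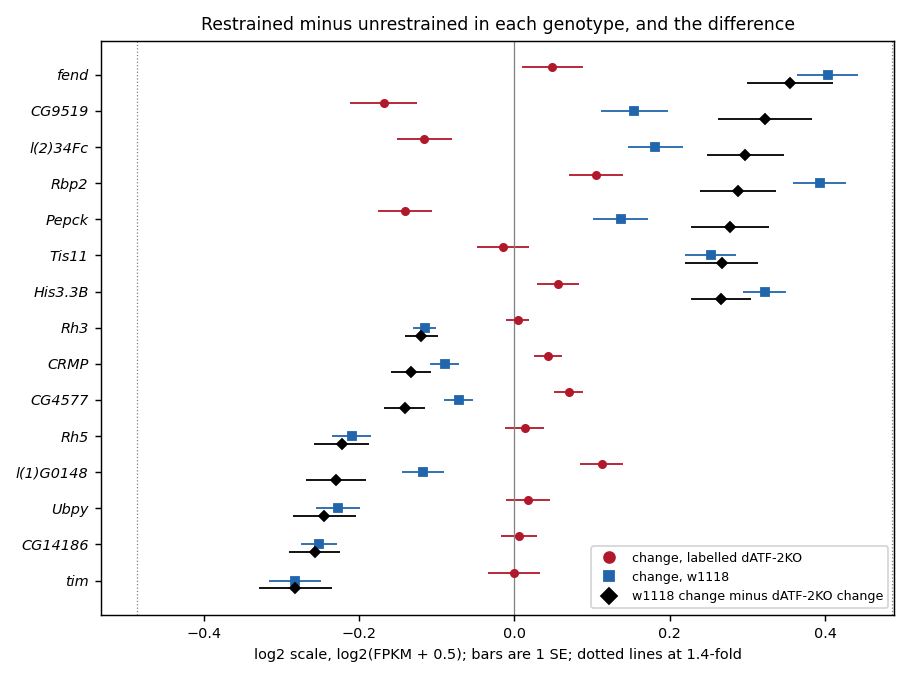
Restrained minus unrestrained change in heads labelled dATF-2KO (red circles) and in w1118 heads (blue squares), and the w1118 change minus the dATF-2KO change (black diamonds), for the 15 genes, on the log2(FPKM + 0.5) scale with bars of 1 SE. All 15 differences lie inside the dotted lines at 1.4-fold, between -0.28 for tim and 0.35 for fend.

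Just outside the adjusted p of 0.05 came Su(Tpl), the elongation factor ELL, sqa, a myosin light chain kinase, and CG31694, each at 0.0512 from limma. The 5 genes of positive sign that followed the 7 were Su(Tpl), Acf1, CG6290, CG8343 and CG3088, and the 4 of negative sign that followed the 8 were sqa, CG31694, CG4822 and CG13869. Acf1, a subunit of chromatin remodelers that space nucleosomes, was at 6.74 to 7.37 FPKM in restrained and 6.44 to 7.45 FPKM in unrestrained heads labelled dATF-2KO, against 5.93 to 6.48 FPKM in restrained and 3.56 to 4.77 FPKM in unrestrained w1118 heads. Its difference of 0.42 (adjusted p = 0.0560 from limma) was larger than any of the 15, and its SE of 0.085 was larger too. The difference was 0.47 for CG6290 (adjusted p = 0.0669 from limma) and 0.47 for CG3088 (adjusted p = 0.0751). Without restrained w1118 replicate 1 both passed both thresholds, CG6290 at an adjusted p of 0.0352 and CG3088 at 0.0348 from limma, as CG3088 did without unrestrained w1118 replicate 1 and CG6290 without unrestrained w1118 replicate 2.

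Across all genes, unrestrained w1118 heads were the group that stood apart most often. For 219 genes, 2.23% of those tested, their 5 libraries did not overlap the other 15, with 81 above and 138 below them. The same count was 49 (0.5%) for restrained and 47 (0.479%) for unrestrained heads labelled dATF-2KO and 46 (0.469%) for restrained w1118 heads. Of the 15 genes with an adjusted p under 0.05, 9 were among the 219. The 15 were chosen by a contrast of these same 4 groups, so this overlap is not independent of that choice. The 2 genotypes came in tables scaled separately, and with each library divided by its median ratio over all 20 libraries, a scaling chosen after seeing the data, the counts were 58 and 52 for restrained and unrestrained heads labelled dATF-2KO, and 51 and 214 for restrained and unrestrained w1118 heads. Within a genotype, the restrained and unrestrained libraries did not overlap for 219 genes (2.23%) in heads labelled dATF-2KO, with 141 higher (1.44%) and 78 lower (0.795%) in restrained heads, and for 535 genes (5.45%) in w1118 heads, with 269 higher (2.74%) and 266 lower (2.71%).

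The change itself was called for 0 genes in heads labelled dATF-2KO and for 8 higher (0.0816%) and 4 lower (0.0408%) genes in w1118 heads in the same fit, and at an adjusted p alone for 2 higher (0.0204%) and 3 lower (0.0306%) genes in heads labelled dATF-2KO. In these heads 552 genes were higher (5.63%) and 378 lower (3.85%) at an unadjusted p under 0.05 from limma, against 778 higher (7.93%) and 942 lower (9.6%) in w1118 heads. After median-of-ratios scaling these counts were 587 higher and 355 lower in heads labelled dATF-2KO and 923 higher and 788 lower in w1118 heads, and after quantile normalization 402 higher and 532 lower in heads labelled dATF-2KO and 817 higher and 831 lower in w1118 heads, so neither genotype kept its balance under both scalings. For none of the 12 genes called in w1118 heads did the difference between genotypes pass an adjusted p of 0.05 (limma, from 0.105 to 0.598), and 11 of the 12 had an unadjusted p under 0.05. All 12 differences had the sign of the w1118 change, and 9 of the 12 had a change of the same sign in heads labelled dATF-2KO. The 12 genes were chosen by their w1118 change, so that their differences are not independent of that choice.

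CR34335, listed by RefSeq as a long noncoding RNA of the X chromosome, was among them. It stood at 13485, 15026, 15978, 15725 and 16641 FPKM in restrained and 13907, 13733, 12666, 11781 and 12747 FPKM in unrestrained heads labelled dATF-2KO, against 14176, 14351, 15942, 16281 and 15502 FPKM in restrained and 8355, 7767, 3384, 6645 and 8151 FPKM in unrestrained w1118 heads. Its changes were 0.24 with dATF-2KO and 1.22 with w1118 fathers, and the difference of 0.98 had an SE of 0.24 (adjusted p = 0.129 from limma). Without unrestrained w1118 replicate 3, the lowest library, the difference was 0.74 and the adjusted p 0.00283, past both thresholds. Over the 20 fits with a library left out, CR34335, noe, CG30284, CG43149 and snoRNA:MeU5-C46 were called in w1118 heads in 20, and fne and mei-P26 in 19, all but the fit without unrestrained w1118 replicate 3. Cks30A was called in 19, RNaseMRP:RNA in 18, snoRNA:Psi18S-1377a in 12, CG33640 in 11 and snoRNA:Me28S-G2703c in 2. The span of CR34335 in the table overlaps those of 4 other genes. The neuronal RNA-binding protein gene fne had 69.8 to 81.3 FPKM in restrained and 63.3 to 73.6 FPKM in unrestrained heads labelled dATF-2KO, against 55.2 to 64.1 FPKM in restrained and 34.8 to 43.7 FPKM in unrestrained w1118 heads. Its change was positive in both genotypes, 0.15 with dATF-2KO and 0.52 with w1118 fathers, and the difference was 0.37 (SE 0.087, adjusted p = 0.105 from limma). mei-P26 had changes of 0.21 with dATF-2KO and 0.52 with w1118 fathers and a difference of 0.32 (adjusted p = 0.218 from limma). The long noncoding RNA noe had changes of 0.18 with dATF-2KO and 0.61 with w1118 fathers and a difference of 0.44 (adjusted p = 0.139 from limma). Cks30A, a subunit of cyclin-dependent kinases, had changes of opposite signs, 0.17 with dATF-2KO and -0.59 with w1118 fathers, and a difference of -0.77 (adjusted p = 0.132 from limma). The other called genes were CG30284, CG33640 and CG43149, with differences of 0.62, 0.67 and 1.10, and 4 small structural RNAs, whose levels are uncertain. In these 4, RNaseMRP:RNA had a difference of -0.40, snoRNA:MeU5-C46 of -0.57 and snoRNA:Psi18S-1377a of -0.67, and snoRNA:Me28S-G2703c was listed at 0 in 3 of 5 unrestrained w1118 libraries.

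**Figure D3:**
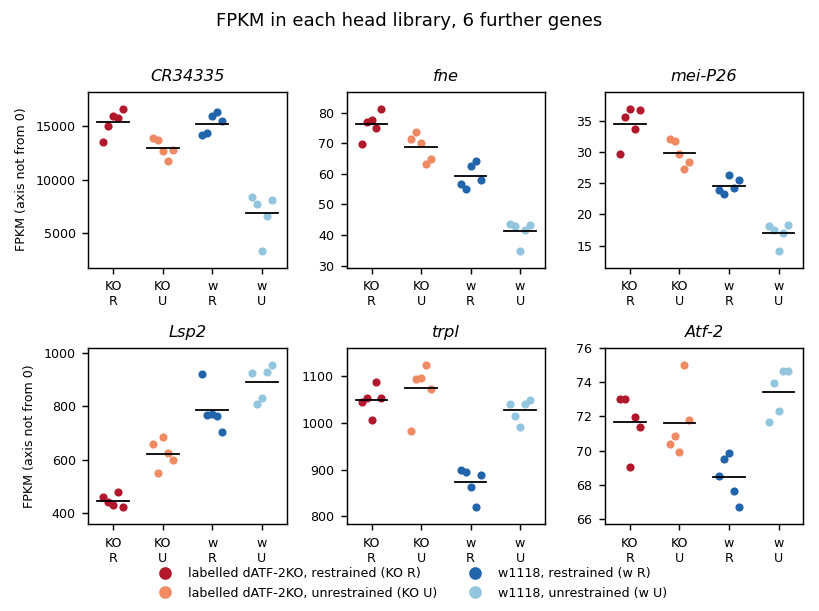
FPKM of CR34335, fne, mei-P26, Lsp2, trpl and Atf-2 in each head library, drawn as in the plot of 15 genes, with heads labelled dATF-2KO (KO) left of w1118 heads (w) and restrained (R) left of unrestrained (U), lines at group means and axes that do not start at 0. In CR34335, unrestrained w1118 replicate 3 is the lowest of all libraries at 3384 FPKM.

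In heads labelled dATF-2KO, 5 genes had an adjusted p under 0.05 at less than 1.4-fold, 2 higher and 3 lower in restrained heads. The larval serum protein gene Lsp2, which also marks adult head fat body, was at 463, 441, 431, 479 and 423 FPKM in restrained and 658, 551, 684, 625 and 600.3 FPKM in unrestrained heads labelled dATF-2KO, against 923, 768, 771, 763 and 704 FPKM in restrained and 925, 810.1, 833, 929.7 and 955 FPKM in unrestrained w1118 heads. The groups did not overlap with dATF-2KO fathers and did with w1118 fathers. The change was -0.48 with dATF-2KO (adjusted p = 0.0150 from limma) and -0.18 with w1118 fathers (adjusted p = 0.154), and the difference was 0.29 (SE 0.10, adjusted p = 0.243 from limma). Lsp2 passed 1.4-fold as well in heads labelled dATF-2KO without restrained replicate 1 or 4 or unrestrained replicate 2 or 5 of that genotype, and was the only lower gene to do so. The other 4 genes were CG32444, betaTub56D, galectin and CG14687, with differences of 0.15, 0.013, -0.069 and -0.16 and no adjusted p under 0.05. For betaTub56D, a beta-tubulin, the changes were close in size, -0.085 with dATF-2KO and -0.072 with w1118 fathers, and both had an adjusted p under 0.05 (0.0486 and 0.0109 from limma).

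Over all 9808 genes the changes of the 2 genotypes had a Pearson r of -0.026 and a Spearman rho of 0.097, as a description across genes, which are not independent. No library is shared between the 2 changes. Their SD over genes was 0.34 in heads labelled dATF-2KO and 0.31 in w1118 heads, and that of the difference was 0.46. At an adjusted p under 0.05 with no threshold on the size, 347 genes changed in w1118 heads (3.54%), of which 208 were higher (2.12%) and 139 lower (1.42%). In 261 of these 347 (75.2%) the change in heads labelled dATF-2KO had the same sign, against 55.1% of all genes tested. The size was smaller there, with a median of 0.024 in heads labelled dATF-2KO, signed by the w1118 change, and of 0.16 in w1118 heads. In 72 of the 347 the change with dATF-2KO fathers had the same sign at an unadjusted p under 0.05, in 9 the opposite one, and 14 of the 347 had an adjusted p under 0.05 for the difference. The 347 genes were chosen by their w1118 change, so these sizes are a description.

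**Figure D4:**
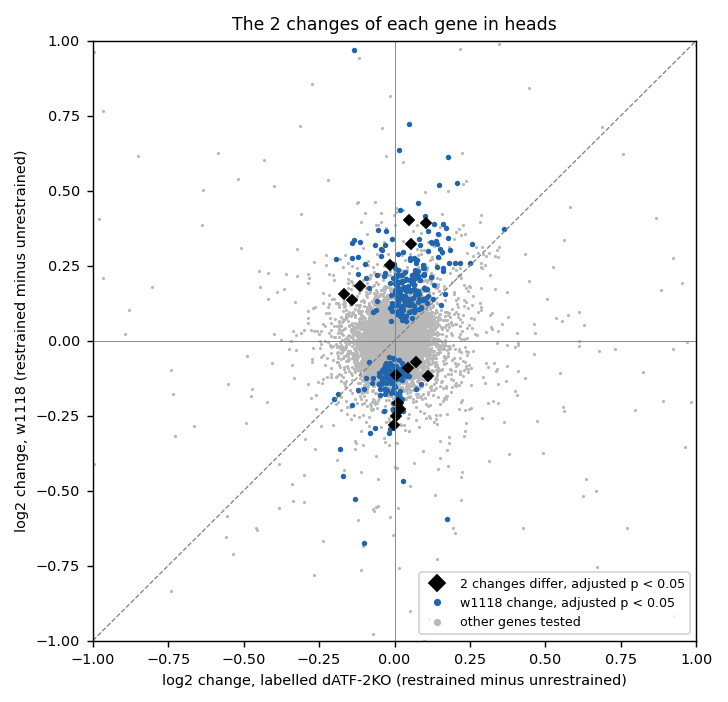
Restrained minus unrestrained change of each gene on the log2(FPKM + 0.5) scale, heads labelled dATF-2KO on the horizontal and w1118 heads on the vertical axis. Black diamonds are the 15 genes at an adjusted p under 0.05 for the difference, blue points the genes at that level for the w1118 change, grey points the other genes, and the dashed line marks equal changes, with 231 genes outside the axes. Over the 347 genes at that level in w1118 heads the Pearson r was 0.29.

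Among lists with at least 10 genes tested, photoreceptor and phototransduction genes had the most negative median after small RNAs. Of its 31 genes tested, 2 had an adjusted p under 0.05, Rh5 and Rh3, and 12 were negative and 0 positive at an unadjusted p under 0.05, where 6.59% of all genes were negative. After quantile normalization 11 were negative and 0 positive. Its median difference was -0.074, against -0.0057 over all genes, with a median change of 0.0044 in heads labelled dATF-2KO and -0.079 in w1118 heads. The mean log2(FPKM + 0.5) of the list was 7.92 to 7.99 in restrained and 7.88 to 7.98 in unrestrained heads labelled dATF-2KO, against 7.88 to 7.91 in restrained and 7.95 to 7.96 in unrestrained w1118 heads. trpl, a channel of the light response, averaged 1049 ± 28.9 FPKM in restrained and 1074 ± 54.2 FPKM in unrestrained heads labelled dATF-2KO, against 873 ± 32.9 FPKM in restrained and 1027 ± 23.4 FPKM in unrestrained w1118 heads (SD, n = 5), a difference of -0.20 (adjusted p = 0.101 from limma). The rhodopsin gene Rh4 had a difference of -0.16 (adjusted p = 0.108), the phosphatase gene rdgC one of -0.16, the channel gene trp one of -0.10 and the arrestin gene Arr2 one of -0.074. In a pool of heads, fewer photoreceptor cells and less RNA per cell cannot be told apart. An earlier result of these data had already shown this list to be lower in restrained than in unrestrained w1118 heads.

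Of 16 clock genes tested, 1, tim, had an adjusted p under 0.05, where 0.0816% of all genes had a negative difference at that level, and 3 were negative at an unadjusted p under 0.05, where 6.59% of all genes were. per, the partner gene of tim, was at 32.1 to 33.5 FPKM in restrained and 32.0 to 35.2 FPKM in unrestrained heads labelled dATF-2KO, against 30.6 to 32.4 FPKM in restrained and 33.8 to 36.6 FPKM in unrestrained w1118 heads, a difference of -0.10 (adjusted p = 0.321 from limma). cwo, a repressor in the same loop, had a difference of -0.10 (adjusted p = 0.326), and Clk, the activator, one of 0.078 (adjusted p = 0.662). The median of the list was -0.011, and 5.5e-05 after quantile normalization.

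Neuronal and synaptic genes differed in both directions, with 6 positive and 6 negative of 34 at an unadjusted p under 0.05 and 0 at an adjusted one (limma), and a median of -0.0056. Over all genes 5.03% were positive and 6.59% negative at that unadjusted p. After fne came cac, the subunit of the presynaptic calcium channel, with a difference of 0.18 (adjusted p = 0.218) and changes of 0.14 with dATF-2KO and 0.32 with w1118 fathers, and Gad1, which makes GABA, with a difference of -0.11. Of 17 glial genes 1 was negative at that level (median -0.026), of 20 muscle genes 4 negative (median -0.051), and of 13 head fat body genes 4 positive and 2 negative (median 0.013). In the fat body list the fatty acid desaturase gene desat1 had a difference of -0.15 (adjusted p = 0.101), with changes of 0.078 with dATF-2KO and -0.072 with w1118 fathers, and the apolipoprotein gene Rfabg one of 0.25 (adjusted p = 0.218).

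For tissues that a head pool should lack, 6 of 29 listed accessory gland and ejaculatory duct genes reached the minimum and 1 was at 0 in all 20 libraries. The list had summed levels of 4287 to 4435 FPKM in restrained and 4327 to 4499.9 FPKM in unrestrained heads labelled dATF-2KO, against 4522 to 4807 FPKM in restrained and 4389.5 to 4734 FPKM in unrestrained w1118 heads. Most of that sum was PebIII, at 4245 to 4325 FPKM in restrained heads labelled dATF-2KO. Of 31 testis genes 7 were tested, with sums of 88.9 to 114 FPKM in restrained and 89.6 to 98.4 FPKM in unrestrained heads labelled dATF-2KO, against 73.9 to 99.9 FPKM in restrained and 75.4 to 129 FPKM in unrestrained w1118 heads. Yolk and eggshell genes summed to 37.0 to 1221 FPKM in restrained and 40.5 to 66.3 FPKM in unrestrained heads labelled dATF-2KO, against 36.8 to 40.0 FPKM in restrained and 34.3 to 39.5 FPKM in unrestrained w1118 heads. In the fit without restrained replicate 3 labelled dATF-2KO, the library with the most yolk RNA, 14 of the 15 genes kept an adjusted p under 0.05, and CRMP was at 0.0595.

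Small nucleolar, nuclear and other structural RNAs had the most negative median of the larger lists, -0.30 over 231 genes, with 5 positive and 14 negative at an unadjusted p under 0.05 and 0 at an adjusted one (limma). Their mean log2(FPKM + 0.5) was 2.55 to 3.08 in restrained and 2.38 to 2.91 in unrestrained heads labelled dATF-2KO, against 2.82 to 3.15 in restrained and 3.06 to 3.24 in unrestrained w1118 heads. Of the 354 listed, 69 were at 0 in all 20 libraries, and the methods name poly(A) selection, so these values are uncertain.

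**Figure D5:**
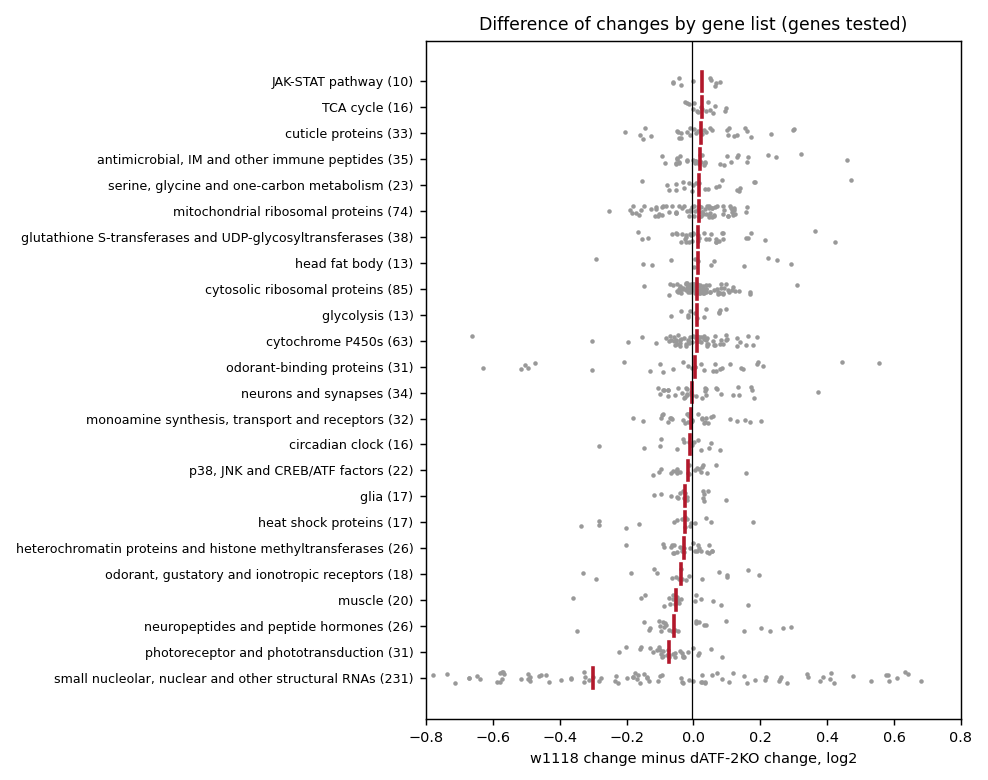
Difference of changes (w1118 minus dATF-2KO, log2) of the genes tested in 24 lists of at least 10 tested genes, with the number tested in brackets. Grey points are genes, red bars list medians and the black line the median of all genes, with 140 points outside the axis. The list medians lie between -0.30 for small RNAs and 0.025 for the JAK-STAT pathway, with photoreceptor genes at -0.074.

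Among stress genes that the study followed in other experiments, the cytokine gene upd3 was below the minimum level and was not tested, at 0.0265 to 0.190 FPKM in restrained and 0.0609 to 0.177 FPKM in unrestrained heads labelled dATF-2KO, against 0.105 to 0.207 FPKM in restrained and 0.0985 to 0.185 FPKM in unrestrained w1118 heads. The differences were 0.045 for the ligand gene spz3, -0.0036 (SE 0.16) for the stress peptide gene TotA and -0.018 for the kinase gene Mekk1, with adjusted p from 0.909 to 0.998 from limma. Of 22 p38, JNK and CREB/ATF genes 1 was positive and 3 negative at an unadjusted p under 0.05, Atf-2 among the negative ones, of 10 JAK-STAT genes 0 were (limma), and of 4 Turandot genes 0 (limma). Of 26 genes for heterochromatin proteins and histone methyltransferases 0 were (limma), where 11.6% of all genes were, and their median was -0.028. Of 17 heat shock genes 2 were positive and 2 negative. The ER chaperone gene Hsc70-3 had a difference of 0.18 (adjusted p = 0.137 from limma) and the small heat shock gene Hsp22 one of -0.28 (adjusted p = 0.179). Of 35 genes for immune peptides 1 was positive, Tep2, at 0.16.

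Over all genes tested, 5.03% had a positive and 6.59% a negative difference at an unadjusted p under 0.05. Of 13 glycolysis genes 2 were positive at an unadjusted p under 0.05 and 0 at an adjusted one (limma), Pglym78 at 0.077 and Tpi at 0.10. Of 16 TCA cycle genes 1 was positive, Idh, at 0.10. Of 23 genes of serine, glycine and one-carbon metabolism 2 were positive and 1 negative, and CG8665, which encodes a formyltetrahydrofolate dehydrogenase, had a difference of 0.47 (SE 0.11, adjusted p = 0.124 from limma) with changes of -0.14 with dATF-2KO and 0.34 with w1118 fathers. Of 85 cytosolic ribosomal protein genes 10 were positive and 1 negative, with a median of 0.010 (9 positive and 4 negative after quantile normalization, with a median of -0.00098), and of 74 mitochondrial ones 0 positive and 3 negative. Of 63 cytochrome P450 genes 6 were positive and 3 negative, and of 38 glutathione S-transferase and UDP-glycosyltransferase genes 5 positive and 1 negative. No member of these lists had an adjusted p under 0.05 (limma).

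Among signalling and sensory genes, the odorant-binding protein gene Obp19d came nearest, with a difference of 0.14 (SE 0.031, adjusted p = 0.0751 from limma) and changes of -0.077 with dATF-2KO and 0.065 with w1118 fathers. Of 31 such genes 4 were positive and 1 negative at an unadjusted p under 0.05, Obp56h with -0.30 being the negative one, where 5.03% of all genes were positive and 6.59% negative. Of 26 neuropeptide genes 3 were positive and 6 negative. Dh31, which encodes a diuretic hormone that also acts on sleep, averaged 59.0 ± 0.999 FPKM in restrained and 55.0 ± 0.975 FPKM in unrestrained heads labelled dATF-2KO, against 57.0 ± 1.63 FPKM in restrained and 58.2 ± 1.78 FPKM in unrestrained w1118 heads (SD, n = 5), a difference of -0.13 (adjusted p = 0.129 from limma). Of 32 monoamine genes 2 were positive and 3 negative, led by the dopamine and ecdysteroid receptor gene DopEcR at -0.15, and of 33 cuticle protein genes 4 were positive, led by Cpr67B at 0.16. Of 18 odorant, gustatory and ionotropic receptor genes 1 was positive, and the 1 gut protease gene tested was not at that level.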

How the data were processed

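RNA-seq was made from pooled heads of 50 sons per library, 20 libraries in 4 groups of 5 taken from the sample labels. Reads were mapped by the authors on the dm3 build with TopHat, and the submitters' processing notes list TopHat2, CASAVA, Cufflinks and Cuffnorm. The deposited values are FPKM, scaled separately in the table of each genotype. The sources used here name neither versions nor the annotation. The methods name poly(A) selection with a stranded total RNA kit and the labels another kit. The deposited tables also hold the authors' means, ratios, p-values and q-values, which were not used. FPKM values keep no read counts, so depth is unknown. Some spans in the tables cover several overlapping genes, whose values are uncertain, and no strand setting is given for the counting. Coordinates are those of the tables, and the Release 6 RefSeq table served for names only.

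Changes were tested with limma 3.58.1 in R 4.3.3, on log2(FPKM + 0.5) values with its mean-variance trend, a scale that understates changes of low genes. One fit of 4 groups covered the 9808 genes whose mean reached 1 FPKM in both tables. P-values were adjusted by the Benjamini-Hochberg method over all of these. A gene was called at an adjusted p under 0.05 and 1.4-fold, the thresholds the study used with Cuffdiff. Whether pools came from separate crosses is not said, and p-values measure only the spread between pools, which may be technical. The genes, the 29 lists and the tests were chosen with earlier results of these data known. Counts at an adjusted p alone, and of groups apart from the other 15 libraries, were added after seeing that no difference passed both thresholds. Lists and chromosome arms under the other scalings were also added after seeing the data.

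Named genes were the 12 of each sign with the smallest p of the difference, the genes called within a genotype, the 3 genes of smallest p in every list, and the stress genes of the study. Rh4, rdgC, trp, Arr2, Clk, His3.3A, CG10924, PebIII, Yp1 and the genes at an adjusted p alone in heads labelled dATF-2KO were added after their values were seen. Results were recomputed with a pseudocount of 0.1 or 1, without the filter and with a minimum of 5 FPKM. Other runs used 2 other scalings, no fold threshold, a separate spread per table or weights for the libraries. Further ones used a robust fit, a replicate block or the accessory gland markers as a covariate. Each library was also left out in turn.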

Additional observations from a re-analysis of the deposited data

Results flagged for a closer look

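For the 15 genes with an adjusted p under 0.05 from limma, the change differed between father genotypes by the test of the difference itself, given as the w1118 change minus the dATF-2KO change on the log2 scale. It was 0.35 for fend, 0.32 for CG9519, 0.30 for l(2)34Fc, 0.29 for Rbp2, 0.28 for Pepck, 0.27 for Tis11 and 0.27 for His3.3B. It was -0.28 for tim, -0.26 for CG14186, -0.24 for Ubpy, -0.23 for l(1)G0148, -0.22 for Rh5, -0.14 for CG4577, -0.13 for CRMP and -0.12 for Rh3. None reached 1.4-fold.

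Among the genes whose library values were given, single libraries lay far from the other 4 by Dixon's test, relative to the spread of their group. Chance alone does this in about 1 of 20 groups. Many groups were looked at, so the libraries below are a description. In unrestrained w1118 heads the lowest library was at 32.2 FPKM for Su(Tpl), 3.56 FPKM for Acf1, 34.8 FPKM for fne, 28.7 FPKM for cac and 343 FPKM for Rfabg. The highest library of that group was at 144 FPKM for Ubpy, 784 FPKM for Rh3 and 78.1 FPKM for CRMP. In restrained w1118 heads the highest library was at 12.2 FPKM for l(1)G0148 and the lowest at 54.2 FPKM for Dh31. In restrained heads labelled dATF-2KO the highest library was at 913 FPKM for CG3088 and 499 FPKM for Yp1, and the lowest at 32.1 FPKM for per. In unrestrained heads labelled dATF-2KO the lowest library was at 36.7 FPKM for CG14186, 522 FPKM for Rfabg and 32.0 FPKM for per, and the highest at 1341 FPKM for desat1 and 12.8 FPKM for Yp1.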

How the results depend on the processing

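The counts of differences past both thresholds stayed at 0 in both directions under all alternatives but 2 kinds (limma, with 493 positive and 646 negative at an unadjusted p under 0.05). With no threshold on the fold they were 7 positive and 8 negative, with 2 higher and 3 lower genes in heads labelled dATF-2KO and 208 higher and 139 lower in w1118 heads. With 1 library left out, the positive count was 0 to 2 and the negative count 0, the counts at an adjusted p alone were 4 to 11 positive and 5 to 11 negative, those within heads labelled dATF-2KO 0 to 1 higher and 0 to 1 lower, and those within w1118 heads 5 to 12 higher and 3 to 5 lower. A minimum of 5 FPKM gave 5 higher genes in w1118 heads, and quantile normalization 12 positive differences at an adjusted p alone. A separate spread per table gave 1 lower gene in heads labelled dATF-2KO and 5 higher in w1118 heads. With the accessory gland marker covariate there were 1 positive and 1 negative difference at an adjusted p alone and 1 lower gene in heads labelled dATF-2KO. The cause of these shifts was not tested.

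The replicate block gave 0 positive and 0 negative differences, also at an adjusted p alone (limma, 466 positive and 589 negative at an unadjusted p under 0.05), and 5 higher and 1 lower genes in w1118 heads. The adjusted p of the 15 genes under the block lay between 0.0909 and 0.214. Whether the replicate numbers paired the samples is not said. Correlations of the deviations of same-numbered libraries ran from -0.16 to 0.12, and 1 of 10 libraries matched its own number best. With 5 libraries per group these values cannot decide it. For the 37 genes followed through the alternatives, the sign of the difference was the same wherever a gene was tested. CG30284, CG33640, CG43149 and Cks30A were not tested under every alternative. Of 120 named genes tested, 1 changed sign under median-of-ratios scaling, TotA, and 0 under quantile normalization. The median difference of all genes was -0.0057 as reported, -0.00062 after median-of-ratios scaling and 0.0067 after quantile normalization, so its sign depended on the scaling. Without read counts, the limit that depth sets on low genes is unknown.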

Other observations

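By chromosome arm, the gene counts of the X chromosome and chromosome 4 departed from the others in opposite directions. Of 1605 genes tested on X, 146 had a positive and 63 a negative difference at an unadjusted p under 0.05 from limma, with a median of 0.017, and after quantile normalization 178 positive and 49 negative. Of 88 genes on chromosome 4, a small and largely heterochromatic chromosome, 1 was positive and 20 were negative at that level, or 23.9% in either direction, with a median difference of -0.065 and median changes of 0.065 in heads labelled dATF-2KO and -0.0080 in w1118 heads. On the autosome arms 10.6% to 12.1% of genes had an unadjusted p under 0.05, with 80 positive and 132 negative on 2L, 86 and 131 on 2R, 81 and 122 on 3L and 99 and 169 on 3R. After quantile normalization there were 100 positive and 103 negative on 2L, 108 and 94 on 2R, 106 and 95 on 3L, 122 and 114 on 3R and 2 and 16 on chromosome 4, so the balance of the autosome arms other than 4 depended on the scaling. No gene of chromosome 4 had an adjusted p under 0.05 for the difference. In single libraries, the level of X and that of chromosome 4 overlapped between restrained and unrestrained heads in both genotypes. On chromosome 4 all restrained libraries labelled dATF-2KO lay within the range of the unrestrained ones. The gene counts were looked at after the values were seen and were not tested as sets, and genes are not independent.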
